A study of Mus musculus with 14 samples.

Results

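A set of 5 immune genes, of the 55416 genes in the deposited count table, is described here. They are Ltb (ENSMUSG00000024399), Il18bp (ENSMUSG00000070427), Stx11 (ENSMUSG00000039232), H2-M2 (ENSMUSG00000016283) and Sema7a (ENSMUSG00000038264). They were listed by name because they stood higher in epiblast stem cells (EpiSC) given a METTL3 inhibitor, so their values in that comparison chose them and are given as a description with no test. All 5 passed the filter on low counts and are among the 18430 genes tested.

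Gene expression was measured by RNA sequencing in 14 libraries of mouse stem cell lines from a Mus molossinus and Mus musculus hybrid background. STM2457 inhibits METTL3, which places the methyl mark m6A on RNA; it was given at 50 µM for 12 h, and DMSO was the control. EpiSC, which derive from the epiblast after implantation and carry the genotype XmolXmus-ΔTsix in both arms, gave 2 libraries with STM2457 and 2 with DMSO. Wild-type trophoblast stem cells (TSC) gave 2 and 2, and wild-type extraembryonic endoderm cells (XEN) gave 3 and 3. EpiSC therefore differ from the other lines in genotype and in their medium with Fgf2 and Activin A as well as in lineage, and these cannot be told apart. Each lineage is represented by 1 line, and nothing states whether replicates came from independent cultures, so a p-value measures only the spread between these libraries, which may be technical.

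The 5 genes act at different points of immune communication. Ltb encodes lymphotoxin beta, a membrane ligand of the TNF superfamily. It holds lymphotoxin alpha at the cell surface and signals through the receptor encoded by Ltbr to the NF-kappaB transcription factors. Il18bp encodes a secreted protein that binds interleukin 18 and keeps it from its receptor. Stx11 encodes a syntaxin, a membrane fusion protein needed for the release of lytic granules by killer lymphocytes. H2-M2 encodes a non-classical MHC class I heavy chain. Sema7a encodes a semaphorin held in the membrane by a GPI anchor, which binds integrins and plexin C1 on neighbouring cells.

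The promoters of the 5 genes are shown because NF-kappaB, which acts downstream of lymphotoxin, binds a known DNA motif. That the genes stood higher together in EpiSC follows from how they were chosen. Each is the RefSeq window from 250 bases before to 50 bases after the annotated start, on build GRCm38.p6, whereas the counting used GRCm39. Capitals mark matches to the NF-kappaB consensus motif on either strand. The windows are chr17:35194257-35194556 (plus strand) for Ltb, chr17:37483505-37483804 (minus strand) for H2-M2, chr7:102018183-102018482 (minus strand) for Il18bp, chr10:12964210-12964509 (minus strand) for Stx11 and chr9:57939862-57940161 (plus strand) for Sema7a.
Ltb: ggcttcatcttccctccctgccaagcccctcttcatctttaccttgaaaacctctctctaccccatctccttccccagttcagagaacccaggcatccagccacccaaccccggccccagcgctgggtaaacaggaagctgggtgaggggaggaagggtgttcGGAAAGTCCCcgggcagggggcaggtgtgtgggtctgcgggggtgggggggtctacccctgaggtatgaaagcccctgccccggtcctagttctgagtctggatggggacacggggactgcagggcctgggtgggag
H2-M2: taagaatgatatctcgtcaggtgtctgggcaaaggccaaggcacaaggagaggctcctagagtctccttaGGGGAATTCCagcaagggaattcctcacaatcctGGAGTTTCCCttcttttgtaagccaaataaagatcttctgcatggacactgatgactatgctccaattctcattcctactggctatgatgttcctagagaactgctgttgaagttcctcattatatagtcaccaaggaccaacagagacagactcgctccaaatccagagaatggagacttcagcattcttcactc
Il18bp: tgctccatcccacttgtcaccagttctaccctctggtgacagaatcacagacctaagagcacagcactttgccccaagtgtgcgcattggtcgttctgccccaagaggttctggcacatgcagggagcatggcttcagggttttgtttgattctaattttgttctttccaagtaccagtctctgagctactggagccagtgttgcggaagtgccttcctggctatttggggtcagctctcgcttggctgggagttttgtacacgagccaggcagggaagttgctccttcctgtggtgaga
Stx11: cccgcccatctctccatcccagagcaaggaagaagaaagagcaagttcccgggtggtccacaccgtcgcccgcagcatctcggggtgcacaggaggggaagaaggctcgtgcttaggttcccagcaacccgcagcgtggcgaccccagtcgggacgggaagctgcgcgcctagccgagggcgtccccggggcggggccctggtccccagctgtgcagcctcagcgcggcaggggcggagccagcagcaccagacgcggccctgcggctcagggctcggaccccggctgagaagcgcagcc
Sema7a: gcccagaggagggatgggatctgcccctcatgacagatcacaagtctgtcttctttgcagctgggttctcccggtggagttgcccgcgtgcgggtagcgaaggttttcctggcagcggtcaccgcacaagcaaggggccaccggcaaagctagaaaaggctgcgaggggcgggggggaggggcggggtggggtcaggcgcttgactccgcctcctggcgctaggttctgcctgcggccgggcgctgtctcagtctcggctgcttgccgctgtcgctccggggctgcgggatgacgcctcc

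The NF-kappaB consensus matched once in the Ltb window, as GGAAAGTCCC from position -87 to -78, and at 2 places in the H2-M2 window, as GGGGAATTCC from -180 to -171 and GGAGTTTCCC from -146 to -137. Positions are counted from the annotated start. The other 3 windows held no match, and 8.46% of all 32841 promoter windows of the same length held at least 1. Of the other motifs searched on both strands, TTCNNNGAA matched in the Ltb window at -172 to -164 and in 8.30% of all windows. TATAAA matched in 0 of the 5 windows and in 13.6% of all windows. The same held for the AP-1 motif TGANTCA, found in 7.81% of all windows, and for the core of the interferon-stimulated response element, found in 3.44%. None of the matches shown overlapped. The windows of Stx11 and Sema7a held 27 and 23 CpG dinucleotides, those of Ltb, Il18bp and H2-M2 7, 5 and 2, and the median window held 7. A match describes the letters and does not show binding.

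In EpiSC, the levels of all 5 genes were higher in both STM2457 libraries than in both DMSO libraries, as was so for 29.6% of all tested genes. Levels are library-scaled counts (CPM), on totals adjusted by the trimmed mean of M values (TMM). Ltb stood at 44.5 and 41.1 CPM in the STM2457 libraries, against 11.5 and 11.5 CPM in the DMSO libraries. This is a difference of 1.90 ± 0.227 on the log2 scale (fitted fold change ± SE, a 3.72-fold higher level). H2-M2 stood at 5.96 and 6.02 CPM with STM2457, against 1.74 and 1.89 CPM with DMSO, a fold change of 1.72 ± 0.344 (log2). The libraries of each arm lay close together for both genes, and the arms lay far apart.

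The other 3 genes had smaller and nearly equal fold changes. Il18bp stood at 6.73 and 6.45 CPM with STM2457, against 2.53 and 2.78 CPM with DMSO (log2 fold change 1.31 ± 0.309). Stx11 stood at 4.75 and 5.46 CPM with STM2457, against 1.94 and 2.17 CPM with DMSO (1.31 ± 0.25). Sema7a stood at 4.60 and 5.63 CPM with STM2457, against 2.19 and 2.03 CPM with DMSO (1.28 ± 0.209). For Stx11 and Sema7a the second STM2457 library was the higher one, and for Ltb and Il18bp the first. The counts behind these values were 919 and 957 with STM2457 and 232 and 243 with DMSO for Ltb, and between 95 and 150 with STM2457 and between 35 and 59 with DMSO for the other 4 genes.

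**Figure D1:**
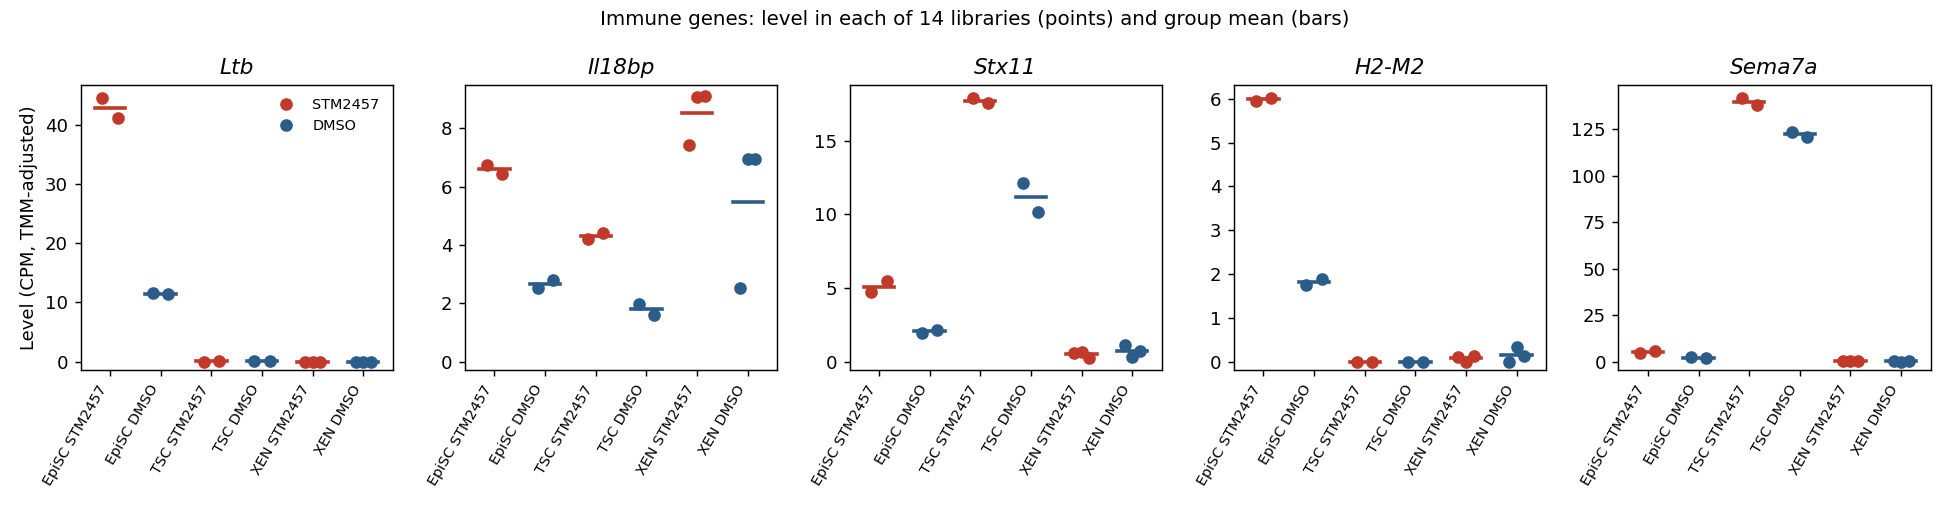
Level of each gene in CPM (vertical axis, linear, a scale of its own per panel) in each library (points) with the group mean (bars), STM2457 in red and DMSO in blue, for EpiSC, TSC and XEN. Ltb and H2-M2 have levels above 1 CPM in EpiSC libraries only, Sema7a is far higher in TSC, and Il18bp is present in all 3 lines.

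The edgeR quasi-likelihood test called 1.28% of the 18430 tested genes higher and 0.402% lower in EpiSC (adjusted p under 0.05). All 5 genes are among the 235 called higher, but this comparison chose them, so nothing is read from that count. By fold change among these 235 genes, Ltb ranked 4, H2-M2 5, Stx11 14, Il18bp 15 and Sema7a 16. Adjusted for exon length, the mean level with STM2457 was 28.2 CPM per kb for Ltb, 3.86 for H2-M2, 2.18 for Il18bp, 1.55 for Sema7a and 1.21 for Stx11. With DMSO the order was the same, at 7.58, 1.17, 0.878, 0.639 and 0.488 CPM per kb. In bulk RNA, more cells that express a gene and more RNA per cell cannot be told apart. The log2 fold changes stayed between 1.11 and 2.03 in every alternative. With DESeq2 and with scaling to ribosomal protein genes, 4 of the 5 were among the called genes, and with 1 EpiSC library left out 0, 0, 1 or 0 were, where the count over all genes was 7 to 17 against 309.

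The genes lay in different chromosomal settings, except that Ltb and H2-M2 both lie on chromosome 17, in the region of the MHC. The nearest tested protein-coding genes on either side of each were compared, in the order of the GENCODE M21 annotation. Of these 10 neighbours, 0 passed the test in EpiSC (edgeR), where 1.68% of all tested genes were called. Beside Ltb, the cytokine gene Tnf had 0.892 CPM with STM2457 and 0.694 CPM with DMSO (log2 fold change 0.36 ± 0.63), and Lst1 had 0.664 and 0.315 CPM (1.05 ± 0.71). Neither neighbour passed, and both had large errors at these low levels.

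The Il18bp exons share 80 of their 3026 bases (2.64%) with Numa1, a mitotic spindle gene transcribed from the opposite strand. Whether reads were counted by strand is not stated, so reads of this stretch could come from either gene. Numa1 stood at 172 CPM with STM2457 and 174 CPM with DMSO in EpiSC, a log2 fold change of -0.02 ± 0.11, and did not pass the test. Rnf121, on its other side, had a fold change of -0.10 ± 0.121. Beside Stx11, Sf3b5 and Utrn had fold changes of 0.13 and -0.33, and beside Sema7a, Ubl7 and Cyp11a1 had -0.19 and -0.38. H2-M3, the nearest tested gene on the lower side of H2-M2 and itself a non-classical class I gene, stood at 1.10 CPM with STM2457 and 1.19 CPM with DMSO. It lay 206 kb from H2-M2, and 9130008F23Rik, the nearest on the higher side, lay 3392 kb away (fold change 0.39). How the counting treated reads shared between class I genes is not given, so part of the H2-M2 counts may belong to related genes.

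The genes were listed for their EpiSC values, so the STM2457 effect was tested in TSC and XEN. These tests are not fully independent of the choice. Earlier results of these data were known when the genes were chosen, and all lines share 1 estimate of spread. Only 3 of the 5 genes had more than 3 counts per library on average in TSC, and 2 in XEN. In TSC, the edgeR test called 0 of 3, where it called 0.966% of all genes, 0.836% higher and 0.13% lower. For 2 of these 3 the p before adjustment was under 0.05, and 2 passed with DESeq2, which called 5.27% of all genes. In XEN, edgeR called 0 of 2, where it called 4.15% of all genes, 3.07% higher and 1.07% lower. For 1 of these 2 the p before adjustment was under 0.05, and 0 passed with DESeq2, which called 8.62% of all genes. The share of all genes with an unadjusted p under 0.05 was not counted.

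Il18bp was the only one of the 5 with more than 1 CPM in all 14 libraries. In TSC it stood at 4.19 and 4.42 CPM with STM2457, against 1.99 and 1.61 CPM with DMSO. The arms did not overlap, as was so for 27.9% of all tested genes in the same direction. The log2 fold change of 1.26 ± 0.331 did not pass (adjusted p = 0.0896, edgeR) but passed with DESeq2 (adjusted p = 0.00985), and over its alternatives the adjusted p ran from 0.000107 to 0.67. In XEN, Il18bp stood at 7.43, 9.07 and 9.11 CPM with STM2457, against 2.51, 6.96 and 6.95 CPM with DMSO. Each STM2457 library was above each DMSO library, as was so for 8.36% of tested genes, but DMSO library 1 lay far below the other two. The fold change in XEN was 0.62 ± 0.275 (adjusted p = 0.248), and without DMSO library 1 it was 0.29 (adjusted p = 0.503). Same-numbered XEN libraries varied together, and with the replicate number as a block the fold change was 0.67 (adjusted p = 0.0445).

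Stx11 and Sema7a were higher in TSC than in EpiSC in both arms. Stx11 stood at 17.9 and 17.6 CPM in TSC with STM2457, against 12.2 and 10.2 CPM with DMSO. The arms did not overlap, and the fold change of 0.67 ± 0.209 (log2) did not pass (adjusted p = 0.158, edgeR; 0.0294 with DESeq2; 0.000162 to 0.804 over its alternatives). Sema7a stood at 142 and 138 CPM in TSC with STM2457, against 124 and 121 CPM with DMSO, a fold change of 0.19 ± 0.143 (adjusted p = 0.62, edgeR). In XEN, Stx11 had 5, 5 and 2 counts with STM2457 and 7, 2 and 6 with DMSO (fold change -0.56 ± 0.505, adjusted p = 0.673, edgeR). Sema7a had 5, 3 and 1 counts with STM2457 and 2, 0 and 3 with DMSO in XEN, too few for a fold change.

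Ltb and H2-M2 were at the floor of detection outside EpiSC. Ltb had 0 and 4 counts in TSC with STM2457 and 2 and 3 with DMSO, and 0 counts in all 6 XEN libraries, which allows up to 0.122 CPM over the STM2457 and 0.145 CPM over the DMSO libraries. H2-M2 had 0 counts in all 4 TSC libraries, which allows up to 0.0711 CPM with STM2457 and 0.074 CPM with DMSO. In XEN it had 1, 0 and 1 counts with STM2457 and 0, 2 and 1 with DMSO. A fold change of either gene could therefore not be measured in TSC or XEN at this depth. No TSC or XEN library with STM2457 had more than 0.177 CPM of Ltb or 0.13 CPM of H2-M2. Neither gene thus reached its EpiSC level there. The limits given for 0 counts, taken as 3 counts, cover counting error only.

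**Figure D2:**
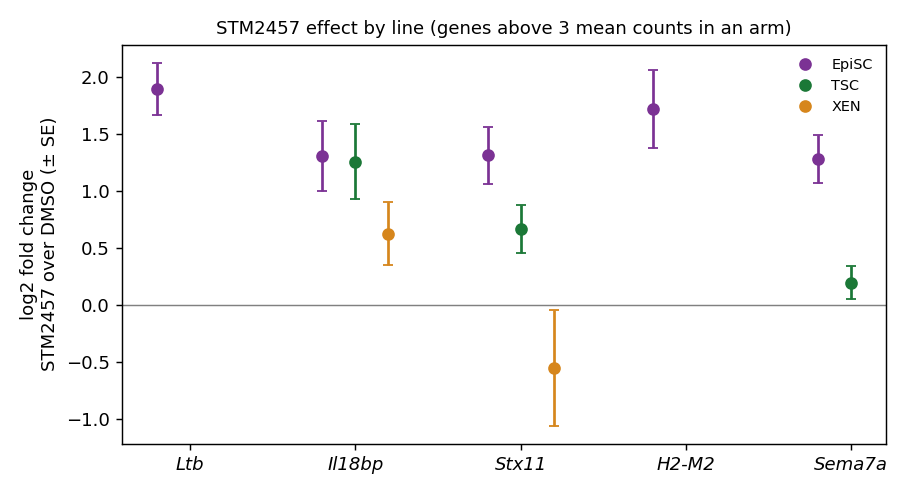
Log2 fold change of STM2457 over DMSO (vertical axis, points) with its standard error (bars) for each gene in EpiSC, TSC and XEN, shown where an arm had more than 3 counts per library on average. The EpiSC values, which chose the genes, lie between 1.28 and 1.90; Il18bp in TSC lies at 1.26, and Stx11 in XEN is the one value below 0.

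The differences between the line effects contain the EpiSC comparison and are given with no test. The EpiSC effect minus the TSC effect was 0.05 ± 0.466 (log2) for Il18bp, 0.65 ± 0.326 for Stx11 and 1.09 ± 0.255 for Sema7a. The EpiSC effect minus the XEN effect was 0.68 ± 0.414 for Il18bp and 1.87 ± 0.569 for Stx11. The difference of the TSC and XEN effects holds no EpiSC library and was tested: it was 0.63 ± 0.431 for Il18bp (adjusted p = 0.989) and 1.22 ± 0.549 for Stx11 (adjusted p = 0.976; edgeR). For Stx11 the p before adjustment was 0.0406. This test called 1 gene in all, 0.00543% of those tested, which was higher in TSC.

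By level, the 5 genes followed different orders over the lines. Ltb was highest in EpiSC with STM2457, followed by EpiSC with DMSO, then TSC, whose arms overlapped, and XEN at 0. H2-M2 had the same leading groups, with the XEN arms overlapping and TSC at 0. Sema7a averaged 140 ± 2.77 CPM in TSC with STM2457 and 122 ± 2.1 with DMSO, 5.12 ± 0.729 in EpiSC with STM2457 and 2.11 ± 0.111 with DMSO, and 0.356 ± 0.214 in XEN with STM2457 and 0.226 ± 0.198 with DMSO (SD, n = 2, 2, 2, 2, 3 and 3). Stx11 averaged 17.7 ± 0.263 and 11.2 ± 1.39 CPM in TSC, 5.10 ± 0.505 and 2.05 ± 0.164 in EpiSC and 0.485 ± 0.199 and 0.717 ± 0.387 in XEN, STM2457 before DMSO in each pair. For both, TSC and EpiSC groups did not overlap with their neighbours in the order, and the XEN arms overlapped each other.

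Il18bp was ordered otherwise, with XEN highest. It averaged 8.54 ± 0.955 CPM in XEN with STM2457 and 5.47 ± 2.57 with DMSO, 6.59 ± 0.2 in EpiSC with STM2457 and 2.66 ± 0.176 with DMSO, and 4.30 ± 0.165 in TSC with STM2457 and 1.80 ± 0.268 with DMSO. The range of the XEN DMSO libraries held all values of EpiSC with STM2457, of TSC with STM2457 and of EpiSC with DMSO, so XEN with DMSO did not differ from these groups beyond its spread. The TSC and XEN libraries in DMSO, which share none with the comparison that chose the genes, were tested. Sema7a was higher in TSC than in XEN by 8.94 ± 0.259 (log2; adjusted p = 2.62e-14, with 5 counts in all over the XEN libraries), Stx11 was higher by 3.94 ± 0.302 (adjusted p = 5.15e-09), and Il18bp was lower in TSC by 1.61 ± 0.33, a fold change of -1.61 (adjusted p = 0.000335; edgeR for all 3). Of all tested genes, 72.5% differed between these lines, 36.5% higher and 36% lower in TSC, so 3 of 3 is not far from the background. The share of called genes that were higher in TSC was 50.3%, but 19.3% with scaling to ribosomal protein genes; the signs and calls of the 3 genes held. Mitochondrial rRNA took 12.0% to 16.0% of the counts in XEN and at most 0.0505% in the other lines, and its part in these line differences was not tested.

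The partners of the 5 genes were measured in the same libraries. Ltbr, the receptor for lymphotoxin beta, averaged 12.4 ± 0.179 CPM in EpiSC with STM2457 and 11.7 ± 0.531 CPM with DMSO (log2 fold change 0.09 ± 0.152, adjusted p = 0.865, edgeR). In XEN, which had no Ltb counts, it averaged 105 ± 4.69 CPM with STM2457 and 78.3 ± 13.1 CPM with DMSO and rose by 0.43 ± 0.115 (adjusted p = 0.0445, edgeR). The call of Ltbr held in 6 of 14 alternatives, and not with the XEN libraries fitted alone (adjusted p = 0.262, edgeR). Of the ligands of the same branch, Lta had 15 counts in EpiSC with STM2457 and 8 with DMSO and was not tested, and Tnf had 40 and 29 counts.

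Interleukin 18 itself was scarce in all lines. Il18 averaged 2.27 ± 0.287 CPM in EpiSC with STM2457 and 2.14 ± 0.777 CPM with DMSO (log2 fold change 0.08 ± 0.476, adjusted p = 1, edgeR), had 0 counts in TSC and 6 and 5 counts in XEN. Il18r1, the receptor chain that binds it, had 0 counts in all 4 EpiSC libraries, which allows up to 0.0683 CPM with STM2457 and 0.0726 CPM with DMSO. Stxbp2, the chaperone of syntaxin 11, averaged 70.0 ± 2.08 CPM in EpiSC with STM2457 and 76.5 ± 1.81 CPM with DMSO (fold change -0.13, adjusted p = 0.669, edgeR). Its fusion partners Snap23 and Vamp8 had fold changes of -0.24 and 0.01 in EpiSC, and neither passed. In XEN, Snap23 averaged 74.9 ± 7.21 CPM with STM2457 and 103 ± 4.32 CPM with DMSO and fell by 0.45 ± 0.0965 (adjusted p = 0.0136, edgeR).

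The heavy chains, the light chain and the peptide transporter of class I did not pass in EpiSC. H2-K1 and H2-D1, the classical heavy chains, averaged 94.2 ± 4.44 and 55.7 ± 1.04 CPM with STM2457, against 70.3 ± 4.8 and 45.4 ± 0.5 CPM with DMSO (fold changes 0.42 and 0.29, adjusted p = 0.138 and 0.265, edgeR). B2m, the light chain, averaged 47.9 ± 4.7 CPM with STM2457 and 37.6 ± 0.643 CPM with DMSO (0.35, adjusted p = 0.166, edgeR). Tap1, which carries peptides to class I molecules, had a fold change of -0.23 (adjusted p = 0.455, edgeR), and Nlrc5, the class I transactivator, had 23 counts with STM2457 and 27 with DMSO. Of the receptors of Sema7a, Itgb1 averaged 634 ± 9.47 CPM with STM2457 and 582 ± 14.1 CPM with DMSO (0.13), Itga1 15.9 ± 0.469 and 15.4 ± 0.392 CPM (0.05) and Plxnc1 2.19 ± 0.603 and 1.64 ± 0.487 CPM (0.41); none of the 3 passed in EpiSC (edgeR), each with an unadjusted p above 0.2. In XEN, Itga1 had 0 counts with STM2457 and 7 with DMSO and passed the test (adjusted p = 0.0324, edgeR). These counts lie below the limit of 3 per library on average, so no fold change is given. The call held in 7 of 13 alternatives.

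**Figure D3:**
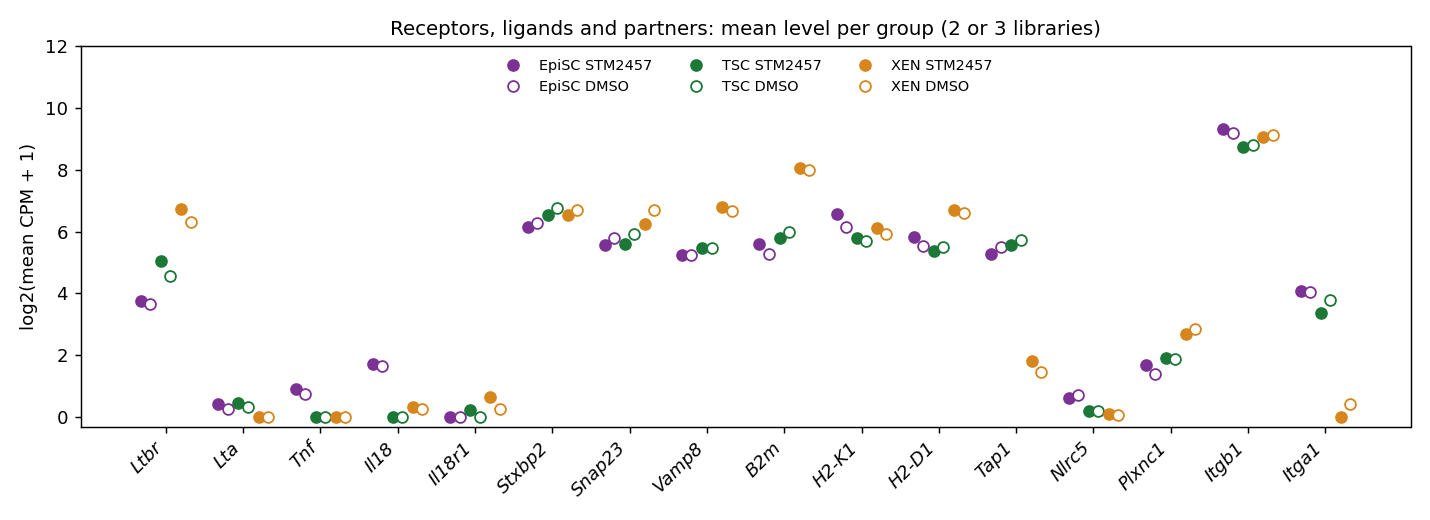
Mean level per group, as log2(CPM + 1) (vertical axis), of receptors, ligands and partners of the 5 genes; filled points are STM2457 and open points DMSO, coloured by line. Ltbr is highest in XEN, Tnf is at 0 in TSC and XEN, and Il18r1 is at 0 in EpiSC.

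Around these partners, lists of pathway genes that hold none of the 5 genes were counted. Of 13 tested ligands and receptors of the lymphotoxin and TNF branch, 1 rose in EpiSC and 12 did not pass, with a median log2 fold change of 0.36 against 0 over all tested genes. The riser was Tnfrsf21, a death receptor, at 21.5 and 23.6 CPM with STM2457 against 13.1 and 14.6 CPM with DMSO (0.70 ± 0.143, adjusted p = 0.0201, edgeR). Of 32 NF-kappaB subunits, inhibitors, kinases and adaptors, 3 rose and 29 did not pass (median 0.34); the p before adjustment was under 0.05 for 16, and 9 passed with DESeq2. Over all genes, edgeR called 1.68% in either direction and DESeq2 6.26%.

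The risers among NF-kappaB genes included both inhibitors and an activator of the pathway. Tnfaip3, which encodes the deubiquitinase A20 that limits NF-kappaB signalling, stood at 17.6 and 21.2 CPM with STM2457, against 10.0 and 9.95 CPM with DMSO (0.96 ± 0.156, adjusted p = 0.00575, edgeR). Nfkbie, an inhibitor that holds the factors in the cytoplasm, stood at 9.15 and 12.0 CPM with STM2457, against 5.17 and 5.85 CPM with DMSO (0.94 ± 0.207, adjusted p = 0.0295, edgeR). Traf6, an adaptor ubiquitin ligase that activates the pathway, stood at 68.1 and 76.1 CPM with STM2457, against 50.9 and 51.3 CPM with DMSO (0.50 ± 0.12, adjusted p = 0.0449, edgeR). Nfkb2 and Relb, the subunits that lymphotoxin signalling releases, had fold changes of 0.34 ± 0.149 (adjusted p = 0.29) and 0.52 ± 0.282 (adjusted p = 0.416), and the inhibitor gene Nfkbia one of 0.41 ± 0.152 (adjusted p = 0.205, edgeR). The subunit genes and Nfkbia thus did not pass.

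Of 19 interferon-gamma genes 2 rose in EpiSC and 17 did not pass (median 0.26). Cxcl10, a chemokine, stood at 26.01 and 25.9 CPM with STM2457 against 8.79 and 8.96 CPM with DMSO, and Ifngr2, a chain of the interferon-gamma receptor, at 18.5 and 16.5 CPM against 9.54 and 9.76 CPM. Their fold changes were 1.55 ± 0.212 (adjusted p = 0.00735) and 0.86 ± 0.151 (adjusted p = 0.00877; edgeR). Of 31 MHC class I and antigen processing genes 1 rose (median 0.27): Tapbp, which encodes tapasin, at 78.1 and 80.8 CPM with STM2457 against 60.3 and 55.1 CPM with DMSO (0.46 ± 0.108, adjusted p = 0.0402, edgeR).

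The lists around the other 3 genes had no member past the test in EpiSC. edgeR called 0 of 15 interleukin 18 and interleukin 1 family genes (median 0.15; 2 at an unadjusted p under 0.05; DESeq2 called 0), 0 of 28 SNARE and granule genes (median 0.00; 2 and 1), 0 of 29 semaphorins and receptors (median 0.26; 4 and 3) and 0 of 24 GPI anchor genes (median -0.02; 6 and 2). With 1 EpiSC library left out, of the 7 called genes only Tnfaip3 passed, in 1 of the 4 fits. With scaling to ribosomal protein genes, which moves the median of all genes by 0.131 in EpiSC, the calls were 0 of 13, 1 of 32, 2 of 19 and 0 of 31 in the first 4 lists.

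**Figure D4:**
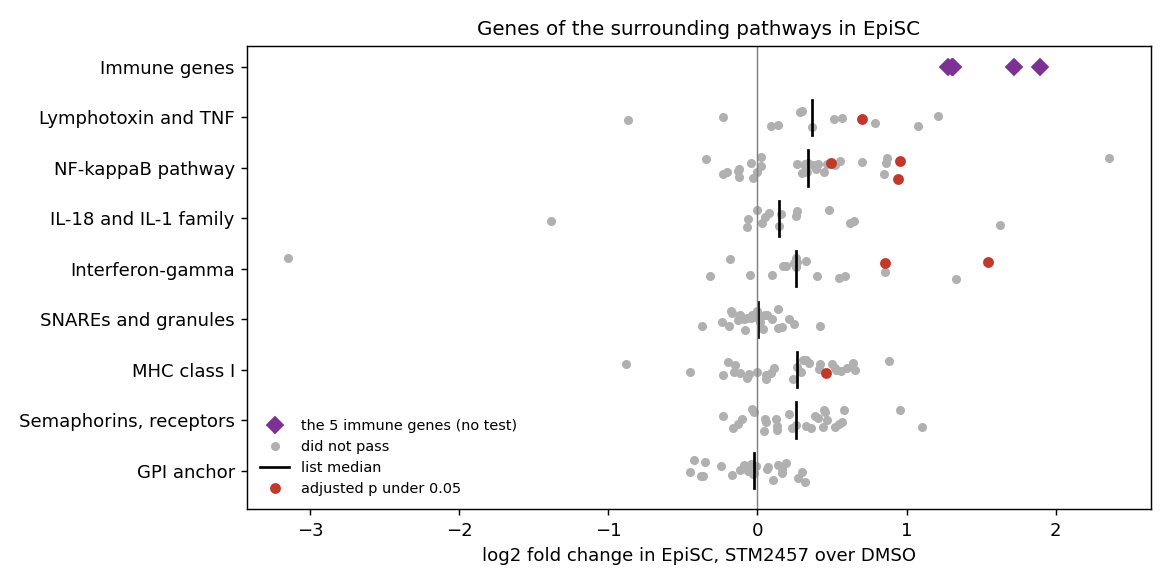
Log2 fold change of STM2457 over DMSO in EpiSC (horizontal axis) for the 5 immune genes (diamonds, chosen from this comparison and not tested) and for the tested genes of 8 surrounding lists (points; red where the adjusted p was under 0.05; black bars are list medians). The lymphotoxin, NF-kappaB, interferon-gamma and MHC class I lists hold 1, 3, 2 and 1 called genes, and the other 4 lists hold 0.

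The same lists were counted in TSC, where edgeR called 0.966% of all genes and DESeq2 5.27%. Ripk1, a kinase at TNF receptors, rose by 0.91 ± 0.161 (adjusted p = 0.0135, edgeR), to 11.1 ± 0.689 CPM with STM2457 against 5.89 ± 1.2 CPM with DMSO, the 1 call of 32 NF-kappaB genes. With the TSC libraries fitted alone, 15 of 31 NF-kappaB genes passed (12 higher, 3 lower), and 30.2% of all genes. The EpiSC libraries fitted alone gave 20 of 31 NF-kappaB genes (19 higher, 1 lower), and 29.2% of all genes. In the other 7 lists edgeR called 0 of 13 lymphotoxin and TNF genes (3 at an unadjusted p under 0.05; DESeq2 called 2), 0 of 15 interleukin genes (1 and 0), 0 of 19 interferon-gamma genes (3 and 2), 0 of 28 SNARE genes (2 and 0), 0 of 31 class I genes (1 and 0), 0 of 29 semaphorin genes (6 and 2) and 0 of 24 GPI anchor genes (6 and 3).

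In XEN, 3 of 32 NF-kappaB genes, 3 of 19 interferon-gamma genes, 1 of 13 lymphotoxin and TNF genes and 1 of 31 class I genes rose, where 3.07% of all genes were called higher and 1.07% lower. Tradd, an adaptor of TNF receptors, rose by 0.60 ± 0.113 (adjusted p = 0.00615) and Traf6 by 0.48 ± 0.103 (adjusted p = 0.0143, edgeR). Irf1, an interferon-induced transcription factor, rose by 0.51 ± 0.115 (adjusted p = 0.0186), and Socs1, an inhibitor of cytokine signalling, by 2.20 ± 0.552 (adjusted p = 0.033, edgeR), with 50 counts over the STM2457 and 9 over the DMSO libraries. Psmb10, an immunoproteasome subunit, rose by 0.91 ± 0.242 (adjusted p = 0.0436, edgeR). Snap23 and Nsf, which recycles SNAREs (-0.44, adjusted p = 0.0353), fell among 28 SNARE genes (edgeR). Itga1, at the few counts given above, was the call among 29 semaphorin genes. Pigl (-0.62, adjusted p = 0.0152) and Pgap1 (-0.54, adjusted p = 0.0332), which make and remodel GPI anchors, fell among 24 GPI anchor genes (edgeR). edgeR called 0 of 15 interleukin genes (1 at p under 0.05 before adjustment, and DESeq2 called 0, against 8.62% of all genes). With the replicate block, which pairs the XEN libraries, 2448 genes passed in XEN, 13.3% of those tested, against 764. The NF-kappaB list then had 5 higher and 4 lower, the interferon-gamma list 7 higher, the lymphotoxin and TNF list 2 higher and the class I list 3 higher. The semaphorin list had 2 higher and 1 lower, the GPI anchor list 3 higher and 3 lower, the SNARE list 3 lower and the interleukin list 1 lower. With the XEN libraries fitted alone, edgeR called 0 of 28 NF-kappaB, 0 of 14 interferon-gamma, 0 of 6 lymphotoxin and TNF and 0 of 16 class I genes. It also called 0 of 27 SNARE, 0 of 21 semaphorin and 0 of 24 GPI anchor genes, and 0.191% of all genes. With scaling to ribosomal protein genes each of these lists had 0 calls in XEN, where 0.76% of all genes passed.

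Blood and immune cell markers were checked, since the 5 genes are best known from such cells. Of 25 markers, 11 had 0 counts in all 4 EpiSC libraries, among them Cd3e and Cd3d of T cells, Ms4a1 of B cells, Ncr1 of natural killer cells and Tyrobp of myeloid and killer cells, and 19 had under 10 counts in all. The summed level of the list was 13.9 to 15.5 CPM with STM2457 and 9.57 to 11.1 CPM with DMSO in EpiSC, 16.5 CPM in both STM2457 libraries and 18.1 to 18.7 CPM with DMSO in TSC, and 6.64 to 9.89 CPM with STM2457 and 8.93 to 11.2 CPM with DMSO in XEN. Most of the EpiSC sum was Cd68, a lysosomal protein gene, at 12.6 ± 1.77 CPM with STM2457 and 9.09 ± 1.05 CPM with DMSO. Every other marker averaged under 1 CPM in both EpiSC arms. Cd14 had 41 counts with STM2457 and 18 with DMSO, Cd79b 17 and 6, and Spi1 10 and 1. Cd79a went the other way with 5 and 7, as did Csf1r with 1 and 2. The median given next thus rests mostly on genes with few counts, and cannot show whether the markers shifted. The 6 tested markers had a median log2 fold change of 0.78 in EpiSC, against 0 over all genes, and edgeR called 0 of them (1 at an unadjusted p under 0.05; DESeq2 called 0). The part of this higher sum in the levels of the 5 genes was not tested.

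The line labels were checked in the same way. Summed epiblast markers stood at 1584 to 1623 CPM with STM2457 and 1963 to 2048 CPM with DMSO in EpiSC, trophoblast markers at 2307 to 2335 and 2248 to 2380 CPM in TSC and endoderm markers at 45581 to 52614 and 43618 to 50345 CPM in XEN, in each case above the level in the other lines. In EpiSC, Lefty1 fell by 0.74 ± 0.154 (adjusted p = 0.0234) among 12 epiblast markers and Pth1r rose by 0.79 ± 0.171 (adjusted p = 0.0269) among 11 endoderm markers. Of the trophoblast markers 0 of 10 passed (edgeR; 3 at p under 0.05 before adjustment, DESeq2 called 3) and of the fibroblast markers 0 of 10 (1 and 0). Fibroblast markers summed to 127 to 133 CPM with STM2457 and 134 to 144 CPM with DMSO in EpiSC. Mettl3 averaged 26.4 ± 0.126 CPM with STM2457 and 31.1 ± 1.69 CPM with DMSO in EpiSC; the inhibitor acts on the enzyme, so this level does not check the labels. Total counts were 17909934 to 21097380 in EpiSC and TSC and 6826496 to 10024628 in XEN.

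The genes whose levels followed each of the 5 most closely over the 14 libraries were ranked by Pearson's r of log2 CPM among 12329 protein-coding genes. The points share cell lines and depth, so r mostly reflects the differences between lines, and no test is given. Ltb was followed by Cxcl10 (r = 0.992), St8sia3 (0.992) and Pcdh18 (0.990). Of these, Pcdh18 had a fold change of only 0.21 in EpiSC, against 1.90 for Ltb. Sema7a was followed by Arhgap22 (0.996), Fxyd5 (0.989) and Galnt12 (0.988), which are highest in TSC. Stx11 was followed by Ypel3 (0.984), Dusp5 (0.981) and Zfp36 (0.979), H2-M2 by Magi2 (0.966), Arhgef18 (0.964) and Rab39b (0.963), and Il18bp by Zbtb39 (0.935), Sertad2 (0.932) and AI464131 (0.932). Zbtb39 had fold changes of 0.47, 0.58 and 0.28 in EpiSC, TSC and XEN, and Il18bp of 1.31, 1.26 and 0.62.

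The transcripts of the 5 genes differed in length and motif density, and 4 of the 5 had few exons. GGAC, the core of the m6A motif, occurred 7.76 times per kb of the longest coding transcript of Ltb and 7.28 times in Sema7a, above 94.9% and 92.8% of 14328 tested protein-coding genes. It occurred 3.87 times per kb in H2-M2, 3.83 in Stx11 and 2.31 in Il18bp, below the median of 4.19, and Il18bp stood above only 11.6% of genes. Transcript length ran from 1160 bases in Ltb to 4173 in Stx11, and 4 of the 5, all but Sema7a with 14 exons, had 3 or 4 exons against a median of 9. m6A itself was not measured in these libraries.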

How the data were processed

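RNA from 14 libraries was sequenced with a stranded total RNA kit, per the labels' protocols. Per the submitters' processing notes, reads passed FastQC, Trim Galore, STAR and featureCounts on build GRCm39, without versions. The authors deposited raw, unnormalized gene counts for each library; strand and multi-mapping settings are not given in the sources used here.

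Genes were named by Ensembl identifier from GENCODE M21 (GRCm38); 3281 of 55416 had no name. A single edgeR 4.0.16 model (R 4.3.3) covered the 14 libraries as 6 groups: TMM, filterByExpr (minimum count 10, total 15), robust quasi-likelihood F test, Benjamini-Hochberg over 18430 genes within a comparison, two-sided, threshold 0.05. Each SE was taken as the log2 fold change divided by the root of the F value. CPM used TMM-adjusted totals; correlations used log2 CPM with a prior count of 2. Fold changes are given where an arm exceeded 3 mean counts. Replicates differed more in XEN (chi-square per degree of freedom 10.3 to 26.8) than in EpiSC and TSC (2.25 to 5.32). All of these values exceed 1, so libraries of a group differed by more than counting error. The main fit gives all groups 1 estimate of spread, and the number of calls changed with the lines fitted together, as given below. Residuals of same-numbered libraries correlated at 0.22 to 0.376 in XEN, and at -0.012 in EpiSC and -0.00269 in TSC. The main fit held no block, so its XEN tests were unpaired. Only the replicate block alternative treats the XEN libraries as paired.

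The 13 gene lists cover lymphotoxin and TNF, NF-kappaB, interleukin 18 and 1, interferon-gamma, SNARE and granule, MHC class I, semaphorin, GPI anchor, immune cell, fibroblast, epiblast, trophoblast and endoderm genes. The 5 genes and the lists were chosen with earlier results of these data known. Named genes were the 5, 19 partners always given, up to 3 called genes per list in EpiSC and 2 in TSC and XEN, the nearest tested neighbours and the 3 genes of highest r. The fit was also run on simulated data. There all lines were given the same spread and no libraries were paired, so the larger XEN spread was not covered. Alternatives included DESeq2 1.42.0, other scalings and filters, a replicate block, single-line fits and leaving out each library.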

Additional observations from a re-analysis of the deposited data

How the results depend on the processing

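The fold changes of the 5 genes kept their direction in every alternative run: 13 each in EpiSC and TSC, 13 or 14 in XEN, and 11 for TSC against XEN in DMSO, where all 3 calls held. In EpiSC, scaling to ribosomal protein genes gave 2.03 for Ltb, 1.44 for Il18bp and 1.85 for H2-M2, by the construction of that scaling. In TSC, Il18bp passed with no filter on low counts (1.25), with DESeq2 (1.27), with the replicate block (1.26), in the TSC libraries alone (1.27) and without the XEN libraries (1.27, chosen after seeing the data); Stx11 passed with DESeq2 (0.68), the replicate block (0.67), TSC alone (0.67) and without XEN (0.67); Sema7a passed in TSC alone (0.20) and without XEN (0.20). In XEN, Il18bp passed with the replicate block (0.67).

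The number of called genes moved more. It was 309 in EpiSC, 178 in TSC and 764 in XEN, and 129, 82 and 140 with scaling to ribosomal protein genes (96.9%, 98.8% and 88.6% of them higher, against 76.1%, 86.5% and 74.1%), 1153, 971 and 1589 with DESeq2 and 2427, 2036 and 2448 with the replicate block. With no filter it was 585 in EpiSC and 332 in TSC. Fitted on each line alone it was 4321, 4378 and 25, and without the XEN libraries 4455 in EpiSC and 4036 in TSC. With 1 library left out it was 7 to 17 in EpiSC, 3 to 12 in TSC and 414 to 1048 in XEN, the lowest without DMSO library 3 and 454 without STM2457 library 1. The lone library left in an arm is then assumed to vary like the other groups. Left-out fold changes ran from 1.11 to 1.42 for Il18bp and 0.54 to 0.80 for Stx11 in TSC. Of the 22 calls of list genes named, 0 held in every alternative. Depth limits Ltb and H2-M2 outside EpiSC. In EpiSC and TSC the block rests on a shared number only.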
